A study of Homo sapiens with 8 samples.

Results

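The genes described here are 10 human genes that the RAS-ERK pathway switches on and that, with one exception, act back on it: the phosphatase genes DUSP1, DUSP4, DUSP5 and DUSP6, the Sprouty genes SPRY1, SPRY2 and SPRY4, the SPRED genes SPRED1 and SPRED2, and EGR1, a transcription factor gene that serves as a readout of ERK activity. They were taken from a list of names among 54628 genes with read counts, and all 10 were found and passed the filter on low counts. The list was chosen by these genes' levels in the same 4 groups of libraries, so their levels and changes are given as a description, without p-values. Where a change is said to be called or to pass, this places it against the threshold used for all genes, an adjusted p of 0.05, and is part of the description.

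Messenger RNA was sequenced from IMR90-hTERT cells, a line of human lung fibroblasts kept dividing by telomerase. All libraries, controls included, came from cells carrying a pInducer20 vector, in which doxycycline drives YAP5SA with a Flag tag at its N terminus. YAP5SA is a form of the Hippo pathway coactivator YAP that the Hippo kinases cannot switch off. There were 4 groups of 2 libraries: bleomycin-treated senescent cells with doxycycline (SEN_Dox), senescent cells without it (SEN_Ctrl), proliferating cells with doxycycline (Nor_Dox) and proliferating cells without it (Nor_Ctrl). Exposure to bleomycin, an agent that damages DNA, was at 10 ug/ml and lasted 24 hours, and cells were examined 9 days after it. Doxycycline was present for 11 days at 1 ug/ml. Cells lacking the transgene were not among the groups, and effects of doxycycline itself cannot be told apart from those of YAP5SA. Nothing in the labels says that the 2 libraries of a group came from separate cultures, so errors and p-values measure the spread between these libraries, which may be technical.

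ERK is the last kinase of a chain in which receptor tyrosine kinases act through RAS, RAF and MEK. Active ERK induces genes whose products restrain it: dual-specificity phosphatases remove the activating phosphates from ERK and related kinases, Sprouty proteins interfere with signalling between receptors and RAF, and SPRED proteins recruit neurofibromin, which switches RAS off. The mRNA levels of these genes are widely read as a record of past pathway activity, but each has other inputs too, such as stress kinases, calcium, p53 and glucocorticoids. The phosphorylation of ERK was not measured.

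Libraries held 33627708 to 39692162 counted reads. Levels are in CPM, reads of the gene per 1000000 counted reads after TMM scaling, and log2 changes and their standard errors (SE) come from 1 edgeR quasi-likelihood fit over 17155 genes. The labels were checked first. ANKRD1, a YAP target, averaged 837 ± 20.7 CPM in SEN_Dox, 83.1 ± 16.2 in SEN_Ctrl, 272 ± 7.95 in Nor_Dox and 3.38 ± 0.429 in Nor_Ctrl (SD, n = 2). YAP1, whose counts may hold reads of both the cell's own gene and the transgene, was higher in SEN_Dox than in SEN_Ctrl (log2 change 0.48, edgeR adjusted p = 0.0014) and did not pass in Nor_Dox against Nor_Ctrl (0.12, edgeR adjusted p = 0.431). LMNB1, which senescent cells lose, had a log2 change of -3.99 in SEN_Dox against Nor_Dox and of -3.97 in SEN_Ctrl against Nor_Ctrl. With doxycycline in proliferating cells LMNB1 (-0.70) and MKI67 (-0.58) were lower (edgeR adjusted p = 6.67e-05 and 0.0137). AMOTL2 (1.00), LATS2 (1.51) and CCN1 (0.52) rose there (edgeR adjusted p = 4.11e-07, 2.39e-09 and 0.000477), while CCN2 (0.07) did not pass (edgeR adjusted p = 0.632). CDKN1A averaged 1142 ± 5.20 CPM in SEN_Dox, 1622 ± 128 in SEN_Ctrl, 378 ± 40.6 in Nor_Dox and 324 ± 1.04 in Nor_Ctrl (SD, n = 2). Of 8 fibroblast markers, 6 were above 100 CPM in every library, and their summed level was 11918 to 14338 CPM in SEN_Dox, 25539 to 26533 in SEN_Ctrl, 18342 to 18627 in Nor_Dox and 25981 to 26217 in Nor_Ctrl. Summed epithelial markers reached 3.34 CPM at most, while 4 of 6 endothelial, 5 of 6 leukocyte and 5 of 6 neuronal and glial markers stayed under 1 CPM in every library. The endothelial and leukocyte sums were carried by TEK and CD68. TEK averaged 101 ± 6.78 CPM in SEN_Dox and 144 ± 13.7 in SEN_Ctrl, and 47.8 ± 3.47 in Nor_Dox and 69.3 ± 1.17 in Nor_Ctrl (SD, n = 2). CD68 averaged 63.9 ± 0.552 CPM in SEN_Dox and 146 ± 32.2 in SEN_Ctrl, and 53.1 ± 2.01 in Nor_Dox and 69.9 ± 2.35 in Nor_Ctrl (SD, n = 2). In senescent cells both were lower with doxycycline, as DUSP4 and DUSP6 were. The lower fibroblast sum with doxycycline came mostly from COL1A1 (log2 change -1.61 in senescent cells) and COL1A2 (-1.56). Of the 8 markers, 5 were called lower with doxycycline in senescent cells and 1, LUM, higher (1.87), while VIM did not pass (0.10). COL3A1 averaged 284 ± 51.0 CPM in SEN_Dox and 1000 ± 113 in SEN_Ctrl (SD, n = 2). In the same order THY1 averaged 528 ± 40.2 and 1012 ± 56.2 CPM, and PDGFRB 129 ± 11.9 and 164 ± 15.4 CPM (SD, n = 2). The part of these markers in the results below was not tested.

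Each of the 10 genes differed in level between SEN_Dox and SEN_Ctrl, 4 being higher and 6 lower with doxycycline. DUSP1, DUSP5, SPRY1 and SPRED1 were higher, while DUSP4, DUSP6, SPRY2, SPRY4, SPRED2 and EGR1 were lower. All 10 were called, where 46.3% of all genes tested were called. In proliferating cells doxycycline gave 5 calls among the 10 genes, DUSP1 and DUSP5 higher and DUSP6, SPRED2 and EGR1 lower, where 23.0% of all genes were called. Senescence without doxycycline gave 9 calls, 7 higher and 2 lower, beside 59.2% of all genes, and senescence with doxycycline gave 8, 5 higher and 3 lower, beside 55.5%. The difference between the doxycycline effects in the 2 states was called for 7 genes, beside 19.9% of all genes. Since the genes were chosen from these same libraries, nothing is read from those counts. The median log2 change of the 10 genes was -0.45 for doxycycline in senescent cells and 0.14 in proliferating cells, beside medians of 0.00 over all genes in both. In bulk RNA, fewer cells expressing a gene and less of its RNA per cell cannot be told apart.

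**Figure D1:**
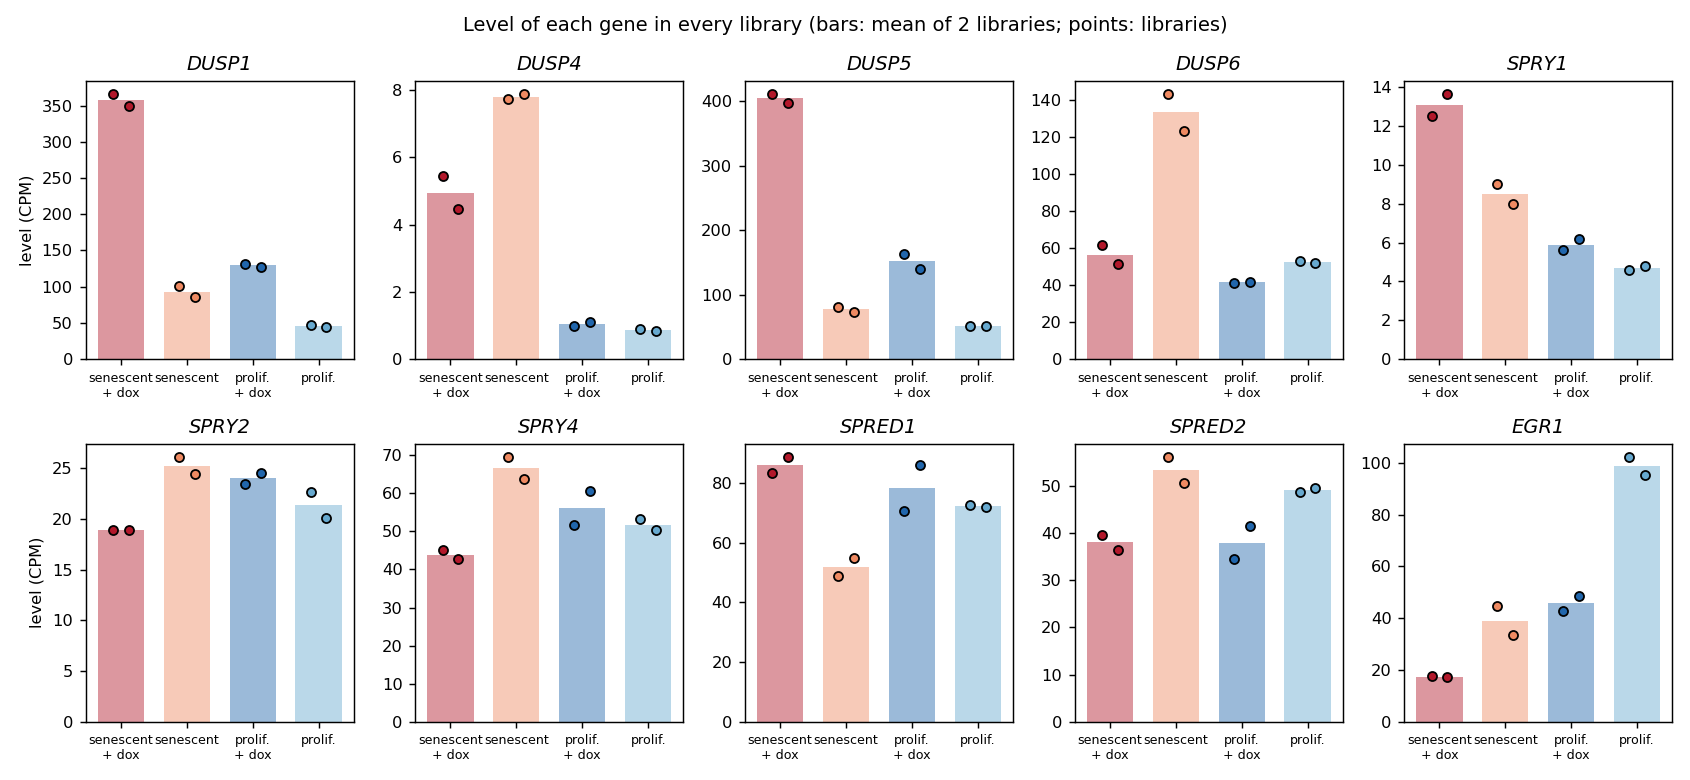
Level in CPM of each of the 10 genes, 1 panel per gene, with bars for the mean of the 2 libraries of a group and points for the libraries. By group mean, DUSP1, DUSP5, SPRY1 and SPRED1 stand highest in senescent cells with doxycycline. DUSP4, DUSP6, SPRY2, SPRY4 and SPRED2 stand highest in senescent cells without it, and EGR1 in proliferating cells without it.

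Scaling by total counts alone would shift the log2 changes of all genes together, with a shift of the median of 0.17 for doxycycline in senescent cells, -0.18 for senescence without doxycycline and 0.18 for the difference of doxycycline effects. The share of called genes that were higher would then be 69.3% in place of 48.7%, 37.1% in place of 50.3% and 70.5% in place of 40.7%. No log2 change of the 10 genes that was past the threshold changed sign under that scaling or any other alternative tried.

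EGR1 is an immediate-early gene that ERK induces through serum response factor and its ETS partners, and its protein in turn activates growth and stress genes. It lies on chromosome 5 at 138465490 to 138469315 on the plus strand (hg38 throughout, GENCODE 29). EGR1 had 17.6 and 17.2 CPM in the SEN_Dox libraries, against 44.7 and 33.4 CPM in SEN_Ctrl. In proliferating cells it had 42.8 and 48.8 CPM in Nor_Dox, against 102 and 95.4 CPM in Nor_Ctrl. Both treatments thus went with a lower level, singly and together, and only SEN_Ctrl and Nor_Dox overlapped among the groups. The log2 change with doxycycline was -1.17 (SE 0.12) in senescent cells and -1.11 (SE 0.11) in proliferating cells. With senescence it was -1.39 (SE 0.12) in the presence of doxycycline and -1.34 (SE 0.12) in its absence. The doxycycline effect differed between the states by -0.06 (SE 0.16), which did not pass. On the log2 scale the lower levels with the 2 treatments were close to additive, and SEN_Dox stood at 17.4 ± 0.315 CPM against 98.8 ± 4.89 CPM in Nor_Ctrl (SD, n = 2).

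DUSP1 and DUSP5 encode inducible phosphatases of the nucleus: DUSP1 acts on the stress kinases p38 and JNK as well as on ERK, and DUSP5 is specific to ERK and holds it in the nucleus. DUSP1 lies on chromosome 5 at 172768090 to 172771195, minus strand, and DUSP5 on chromosome 10 at 110497838 to 110511544, plus strand. DUSP1 had 366 and 349.8 CPM in SEN_Dox, against 100.5 and 85.0 CPM in SEN_Ctrl. Its levels were 132 and 127 CPM in Nor_Dox, against 47.5 and 44.0 CPM in Nor_Ctrl. No 2 groups overlapped, and the order from low to high was Nor_Ctrl, SEN_Ctrl, Nor_Dox, SEN_Dox. DUSP5 had 411 and 398 CPM in SEN_Dox, against 80.3 and 73.8 CPM in SEN_Ctrl. In proliferating cells DUSP5 stood at 164 and 139.7 CPM in Nor_Dox, against 50.7 and 50.9 CPM in Nor_Ctrl. The order of the groups was that of DUSP1, again with no overlap, and the mean of the highest group was 7.83 times that of the lowest for DUSP1 and 7.96 times for DUSP5.

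Doxycycline went with a 3.86-fold higher level of DUSP1 in senescent cells (log2 change 1.95, SE 0.09) and a 2.83-fold higher level in proliferating cells (1.5, SE 0.09). For DUSP5 the levels with doxycycline were 5.25-fold higher in senescent cells (2.39, SE 0.09) and 2.98-fold higher in proliferating cells (1.58, SE 0.09). These were the largest changes with doxycycline in either direction among the 10 genes in both states. Senescence went with smaller differences: DUSP1 was higher by 1.47 on the log2 scale (SE 0.09) with doxycycline and by 1.02 (SE 0.09) without it. DUSP5 was higher by 1.42 (SE 0.09) with doxycycline and by 0.60 (SE 0.09) without it. Between the states the doxycycline effect differed by 0.45 (SE 0.12) for DUSP1 and by 0.82 (SE 0.12) for DUSP5. The DUSP1 difference was no longer past the threshold when Nor_Ctrl replicate 1, Nor_Ctrl replicate 2, SEN_Ctrl replicate 2 or SEN_Dox replicate 1 was left out, with values of 0.39, 0.49, 0.32 and 0.43.

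The promoters of EGR1 and DUSP1 are shown because these genes moved in opposite directions with doxycycline and because each holds a motif found in no other of the windows searched. Both windows are the 250 bases before a transcript start in RefSeq (GRCh38.p14), written in the direction of transcription. Capitals mark motif matches. In EGR1 they are, from left to right, an EGR motif and a pair of CArG boxes, the sites that serum response factor binds; in DUSP1 they are a cyclic AMP response element (CRE), bound by CREB and ATF factors.
EGR1, chr5:138465229-138465478, plus strand: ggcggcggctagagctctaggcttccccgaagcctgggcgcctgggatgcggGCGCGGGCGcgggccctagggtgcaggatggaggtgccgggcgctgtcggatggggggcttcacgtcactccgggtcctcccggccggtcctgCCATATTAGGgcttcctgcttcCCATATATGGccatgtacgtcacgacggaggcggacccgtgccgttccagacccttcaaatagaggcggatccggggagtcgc
DUSP1, chr5:172771196-172771445, minus strand: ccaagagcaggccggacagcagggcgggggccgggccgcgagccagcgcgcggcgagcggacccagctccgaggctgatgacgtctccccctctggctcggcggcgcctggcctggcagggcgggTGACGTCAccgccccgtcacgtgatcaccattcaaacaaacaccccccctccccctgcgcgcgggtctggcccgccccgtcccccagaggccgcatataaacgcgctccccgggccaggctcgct
The CArG boxes of EGR1 lie at -105 to -96 and -83 to -74 from the start, and its EGR motif at -198 to -190. The CRE of DUSP1 lies at -125 to -118.

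RefSeq windows were at hand for 8 of the 10 genes, 12 windows in all, and 6 motifs were searched on both strands without regard to one another. The CRE (TGACGTCA) is in 1.65% of 35116 promoter windows of the same length and the CArG box in 1.16%. The EGR motif (GCGNGGGCG) is in 8.41% of them, and in 4 of the 12 windows here, 1 each of SPRY1, SPRY2, SPRY4 and EGR1. In GENCODE the SPRY1 window with it lies wholly within exons of the gene (250 bases), and that of SPRY4 in part (170 bases). For that of SPRY2, bases 31 to 50 after the start matched no GENCODE transcript of the gene. The 1 form of ETS motif searched (CCGGAA), in 14.5% of all windows, was found in those windows of SPRY1 and SPRY2. Other forms of an ETS site were not searched, so lack of a match in EGR1 or another gene does not show lack of a site. No window of the 8 genes held an AP-1 motif (TGANTCA, 6.57% of all windows) or the TEAD motif (GGAATG, 11.9%). The latter is the site of the factors through which YAP acts. Motifs outside these windows were not searched. For DUSP6 and SPRED1 the only window lies wholly within GENCODE exons of the gene (250 bases each). For these genes the sequence before the GENCODE start was therefore not covered. A SPRED2 window lies in exons in part (38 bases). Another SPRY2 window also had bases 31 to 50 that matched no GENCODE transcript. Matches are a description of the letters and show no binding.

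**Figure D2:**
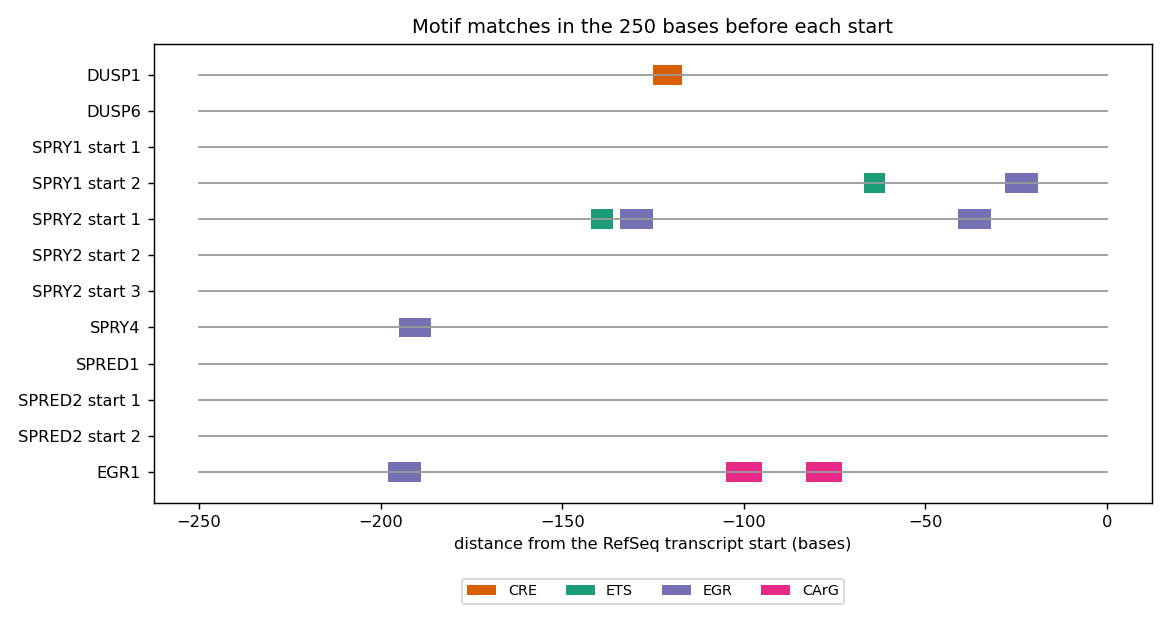
Position of motif matches, in bases from the transcript start, in the 12 RefSeq windows of 8 of the 10 genes. Coloured blocks are CRE, ETS, EGR and CArG matches, of which DUSP1 holds the 1 CRE and EGR1 the 2 CArG boxes.

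DUSP6 encodes a cytoplasmic phosphatase that acts on ERK in preference to p38 and JNK, and its mRNA is a widely used marker of ERK output. DUSP6 lies on chromosome 12 at 89347232 to 89353271, minus strand, and shares 1875 exonic bases with an antisense gene, AC024909.2, and RefSeq lists a readthrough gene, POC1B-DUSP6. Neither is a row of the count table. Whether counting used strand is not given in the sources used here, and the counts of DUSP6 may hold reads of either. DUSP6 had 61.6 and 51.2 CPM in SEN_Dox, against 143 and 123 CPM in SEN_Ctrl. Its levels were 41.2 and 41.7 CPM in Nor_Dox, against 52.8 and 52.1 CPM in Nor_Ctrl. SEN_Ctrl stood clear of every other group, while SEN_Dox overlapped with Nor_Ctrl.

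Without doxycycline, DUSP6 was 2.54-fold higher in senescent than in proliferating cells (log2 change 1.35, SE 0.10), and with doxycycline it was 1.36-fold higher (0.45, SE 0.10). Its level with doxycycline was 2.36-fold lower in senescent cells (-1.24, SE 0.10) and 1.26-fold lower in proliferating cells (-0.34, SE 0.10). That last difference did not pass without Nor_Ctrl replicate 1, Nor_Ctrl replicate 2 or Nor_Dox replicate 1, with values of -0.33, -0.35 and -0.33. The doxycycline effect differed between the states by -0.90 (SE 0.14). DUSP6 and the pair DUSP1 and DUSP5, which act on ERK in different compartments, thus had opposite signs with doxycycline in both states and the same sign with senescence.

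DUSP4 encodes an inducible nuclear phosphatase of ERK, p38 and JNK that is also a known target of p53 and E2F1. DUSP4 lies on chromosome 8 at 29333064 to 29350668, minus strand. It had the lowest counts of the 10 genes, 33 to 276 reads per library, and so the widest errors. Levels were 5.45 and 4.45 CPM in SEN_Dox, against 7.73 and 7.87 CPM in SEN_Ctrl. In proliferating cells they were 0.971 and 1.09 CPM in Nor_Dox, against 0.903 and 0.827 CPM in Nor_Ctrl. The senescent libraries were all above the proliferating ones, and no 2 groups overlapped. The log2 change with senescence was 2.26 (SE 0.20) with doxycycline and 3.17 (SE 0.21) without it, the largest among the 10 genes in each case. With doxycycline it was -0.66 (SE 0.18) in senescent cells and 0.26 (SE 0.23) in proliferating cells, where it did not pass. Without SEN_Dox replicate 2 the value in senescent cells was -0.52 and did not pass. The difference between the doxycycline effects, -0.91 (SE 0.29), was past the threshold only narrowly: it did not pass in limma-voom (-0.91), in DESeq2 (-0.90), without a filter (-0.93), with total counts only (-0.73), with the description's replicate number as a block (-0.95) or without any 1 of 6 libraries, where it was between -0.98 and -0.78. Those 6 were both Nor_Ctrl and both SEN_Ctrl libraries, Nor_Dox replicate 2 and SEN_Dox replicate 2.

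The Sprouty genes encode membrane-associated inhibitors that growth factors induce. SPRY2 and SPRY4 had nearly the same profile over the 4 groups, and SPRY1 another. SPRY2, on chromosome 13 at 80335976 to 80340951, minus strand, had 18.9 CPM in both SEN_Dox libraries, against 26.1 and 24.4 CPM in SEN_Ctrl. It had 23.5 and 24.6 CPM in Nor_Dox, against 22.7 and 20.1 CPM in Nor_Ctrl. SEN_Dox was the lowest group, and SEN_Ctrl, the highest, overlapped with Nor_Dox. SPRY4, on chromosome 5 at 142310427 to 142326455, minus strand, had 45.02 and 42.7 CPM in SEN_Dox, against 69.5 and 63.7 CPM in SEN_Ctrl. It had 51.8 and 60.6 CPM in Nor_Dox, against 53.3 and 50.3 CPM in Nor_Ctrl. SEN_Dox was again lowest and SEN_Ctrl highest, and the proliferating groups overlapped.

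With doxycycline in senescent cells the log2 change was -0.42 (SE 0.09) for SPRY2 and -0.60 (SE 0.09) for SPRY4. In proliferating cells it was 0.17 (SE 0.09) for SPRY2 and 0.12 (SE 0.09) for SPRY4, and neither passed. The difference between those effects was -0.59 (SE 0.13) for SPRY2 and -0.72 (SE 0.13) for SPRY4, and that of SPRY2 did not pass without Nor_Ctrl replicate 2, at -0.51. The sign with senescence also depended on doxycycline. With doxycycline both were lower in senescent than in proliferating cells, by -0.35 (SE 0.09) for SPRY2 and -0.36 (SE 0.09) for SPRY4 on the log2 scale, while without it both were higher, by 0.24 (SE 0.09) for SPRY2 and 0.36 (SE 0.09) for SPRY4. These last values did not pass with total counts only, at 0.07 for SPRY2 and 0.19 for SPRY4. That of SPRY2 also did not pass without a filter (0.23), without Nor_Ctrl replicate 2 (0.15) or without SEN_Ctrl replicate 1 (0.19).

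SPRY1, on chromosome 4 at 123396795 to 123403760, plus strand, had 12.5 and 13.6 CPM in SEN_Dox, against 9.05 and 8.0 CPM in SEN_Ctrl. It had 5.62 and 6.17 CPM in Nor_Dox, against 4.59 and 4.81 CPM in Nor_Ctrl. The groups did not overlap, and the order from low to high was Nor_Ctrl, Nor_Dox, SEN_Ctrl, SEN_Dox. With senescence the log2 change was 1.15 (SE 0.13) in the presence of doxycycline and 0.86 (SE 0.13) in its absence. With doxycycline it was 0.62 (SE 0.13) in senescent cells and 0.33 (SE 0.14) in proliferating cells, where it did not pass. The difference between these effects was 0.29 (SE 0.19) and did not pass. SPRY1 was the 1 Sprouty gene of the 3 that was higher with doxycycline in senescent cells.

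**Figure D3:**
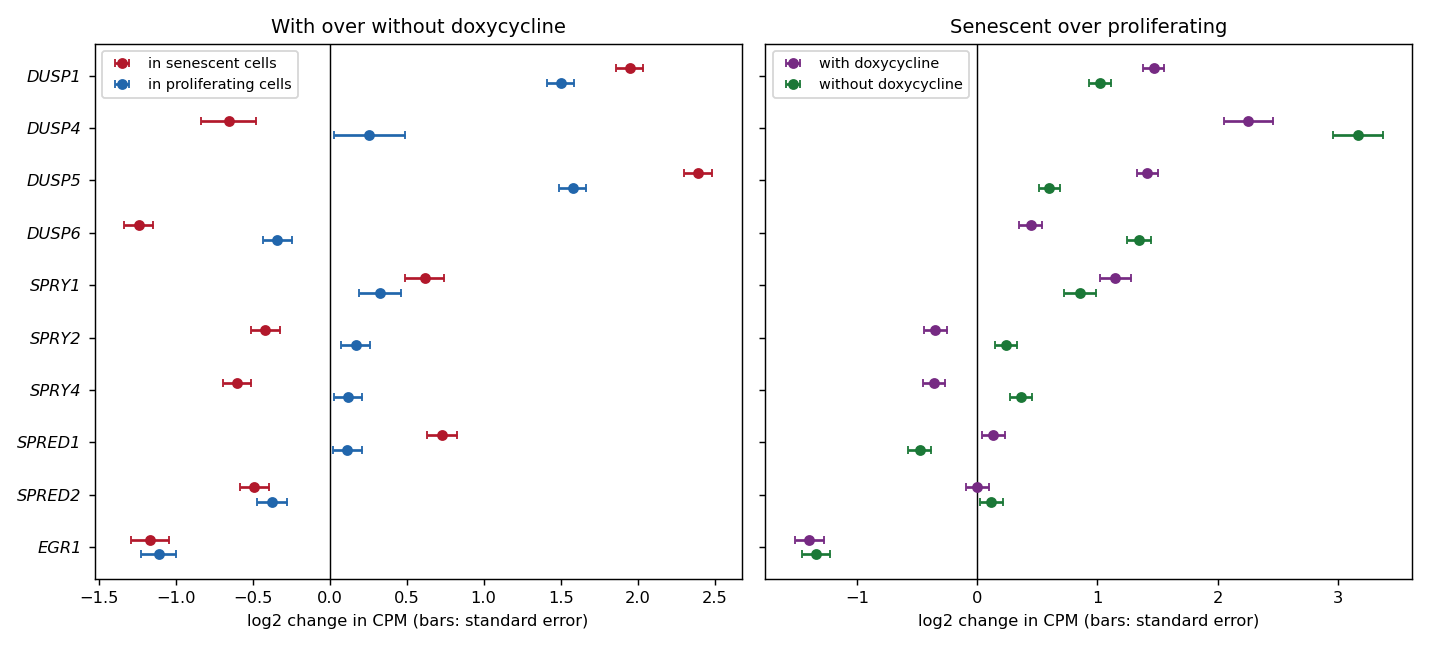
Log2 change in CPM of the 10 genes with doxycycline (left, in senescent and in proliferating cells) and with senescence (right, with and without doxycycline), from the edgeR fit, with bars for 1 SE on each side. DUSP1, DUSP5 and SPRY1 lie right of 0 in all 4 comparisons and EGR1 left of 0 in all 4. On the right, SPRY2 and SPRY4 lie on opposite sides of 0 with and without doxycycline.

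SPRED1 and SPRED2, whose proteins bring neurofibromin to the membrane, went opposite ways with doxycycline. SPRED1, on chromosome 15 at 38252326 to 38357249, plus strand, had 83.3 and 88.8 CPM in SEN_Dox, against 49.0 and 54.9 CPM in SEN_Ctrl. It had 70.6 and 86.0 CPM in Nor_Dox, against 72.8 and 71.9 CPM in Nor_Ctrl. SEN_Ctrl was below every other group, and Nor_Dox overlapped with both Nor_Ctrl and SEN_Dox. SPRED1 was the 1 gene of the 10 that was lowest in SEN_Ctrl. Its log2 change with doxycycline was 0.73 (SE 0.10) in senescent cells and 0.12 (SE 0.09) in proliferating cells, where it did not pass, and these effects differed by 0.61 (SE 0.13). With senescence it was 0.13 (SE 0.09) with doxycycline, which did not pass, and -0.48 (SE 0.10) without it. Without Nor_Dox replicate 2 the value with doxycycline was 0.28 and passed.

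SPRED2, on chromosome 2 at 65310851 to 65432637, minus strand, had 39.6 and 36.4 CPM in SEN_Dox, against 56.1 and 50.5 CPM in SEN_Ctrl. It had 34.4 and 41.4 CPM in Nor_Dox, against 48.7 and 49.6 CPM in Nor_Ctrl. The 4 libraries with doxycycline were all below the 4 without it. With doxycycline the log2 change was -0.49 (SE 0.10) in senescent cells and -0.37 (SE 0.10) in proliferating cells. The value in proliferating cells did not pass without Nor_Ctrl replicate 1 (-0.38), Nor_Ctrl replicate 2 (-0.36) or Nor_Dox replicate 1 (-0.24). With senescence it was 0.00 (SE 0.10) with doxycycline and 0.12 (SE 0.10) without it, and neither passed. The doxycycline effects differed by -0.12 (SE 0.14), which did not pass.

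The 10 genes therefore had no shared profile. SEN_Ctrl was the highest group for 5 of them (DUSP4, DUSP6, SPRY2, SPRY4 and SPRED2), SEN_Dox for 4 (DUSP1, DUSP5, SPRY1 and SPRED1) and Nor_Ctrl for EGR1. Likeness was measured as the root mean square difference of log2 group means, centred over the 4 groups, where 0 is an identical profile. It was 0.0737 for SPRY2 and SPRY4 and 0.196 for DUSP1 and DUSP5, the nearest pairs within the Sprouty and phosphatase genes. SPRED2 was nearest to SPRY4, at 0.182. EGR1 was the gene farthest from DUSP1 (1.94), DUSP5 (1.97), DUSP4 (2.07) and SPRY1 (1.43) among the 10. Over 9679 well expressed genes, the nearest profile to DUSP1 was that of SGK1 (0.148), a kinase gene that serum and glucocorticoids induce, and DUSP1 was itself the second nearest to DUSP5 (0.196) after TUFT1 (0.144). CYP2S1 was nearest to DUSP6 (0.0412) and ELOVL2 to EGR1 (0.0970). With 4 group means, many genes lie near any profile.

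The other genes of the pathway form 7 lists with 95 tested genes. Their counts are to be read beside those of all genes tested, of which 22.6% rose and 23.8% fell with doxycycline in senescent cells, 12.6% rose and 10.4% fell in proliferating cells, and 29.8% rose and 29.4% fell with senescence in the absence of doxycycline. The median log2 changes of all genes were 0.00, 0.00 and 0.01 in the same order, and list medians are given in that order. Among other MAP kinase phosphatase genes, DUSP7, DUSP10 and DUSP16 were tested. DUSP10, which acts on p38 and JNK, had 50.2 and 45.2 CPM in SEN_Dox, against 95.8 and 88.3 CPM in SEN_Ctrl, and fell by 0.95 on the log2 scale with doxycycline (edgeR adjusted p = 3.03e-07). It rose by 0.65 with senescence in the absence of doxycycline (edgeR adjusted p = 7.24e-06), as DUSP4 and DUSP6 were higher there. DUSP7, an ERK phosphatase of the cytoplasm like DUSP6, averaged 28.8 ± 1.15 CPM in SEN_Dox and 42.1 ± 6.38 CPM in SEN_Ctrl (SD, n = 2) and fell by 0.55 with doxycycline (edgeR adjusted p = 0.000329). None of the 3 was called for doxycycline in proliferating cells by edgeR, DESeq2 or limma-voom, and none had an unadjusted p under 0.05 in edgeR. DUSP10 and DUSP16 were the 2 called as higher with senescence without doxycycline, DUSP16 at 0.30 (edgeR adjusted p = 0.0278). The medians of the 3 were -0.55, -0.04 and 0.30. The count was 1, DUSP10, with total counts only, without a filter, with the description's replicate block and without Nor_Ctrl replicate 1, Nor_Ctrl replicate 2 or SEN_Ctrl replicate 2.

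Among 10 tested genes for other negative regulators, 3 rose and 3 fell with doxycycline in senescent cells, 2 rose and 3 fell in proliferating cells, and 6 rose with senescence in the absence of doxycycline, where the other 4 did not pass. The medians were 0.01, -0.17 and 0.30. The count that rose in senescent cells was 5 with total counts only, and in proliferating cells it was 0 without Nor_Ctrl replicate 2. With senescence 1 gene fell without SEN_Ctrl replicate 2, with total counts only or with the 4 libraries alone. ERRFI1, an inhibitor of EGFR, averaged 1194 ± 87.7 CPM in SEN_Dox and 659 ± 57.3 in SEN_Ctrl, and 157 ± 9.60 in Nor_Dox and 232 ± 19.2 in Nor_Ctrl (SD, n = 2). It thus rose by 0.86 with doxycycline in senescent cells (edgeR adjusted p = 3.63e-06) and fell by 0.56 in proliferating cells (edgeR adjusted p = 0.000581), and the difference of 1.42 passed (edgeR adjusted p = 6.07e-06). LRIG1, which promotes the breakdown of EGFR family receptors, resembled DUSP6 in direction: it fell by 1.03 with doxycycline in senescent cells (edgeR adjusted p = 9.77e-08) and by 0.60 in proliferating cells (edgeR adjusted p = 0.000115), and rose by 1.68 with senescence without doxycycline (edgeR adjusted p = 1.6e-10). RASA1, a RAS GTPase-activating protein, fell with doxycycline by 0.81 in senescent cells and by 0.49 in proliferating cells (edgeR adjusted p = 5.18e-07 and 0.000196).

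**Figure D4:**
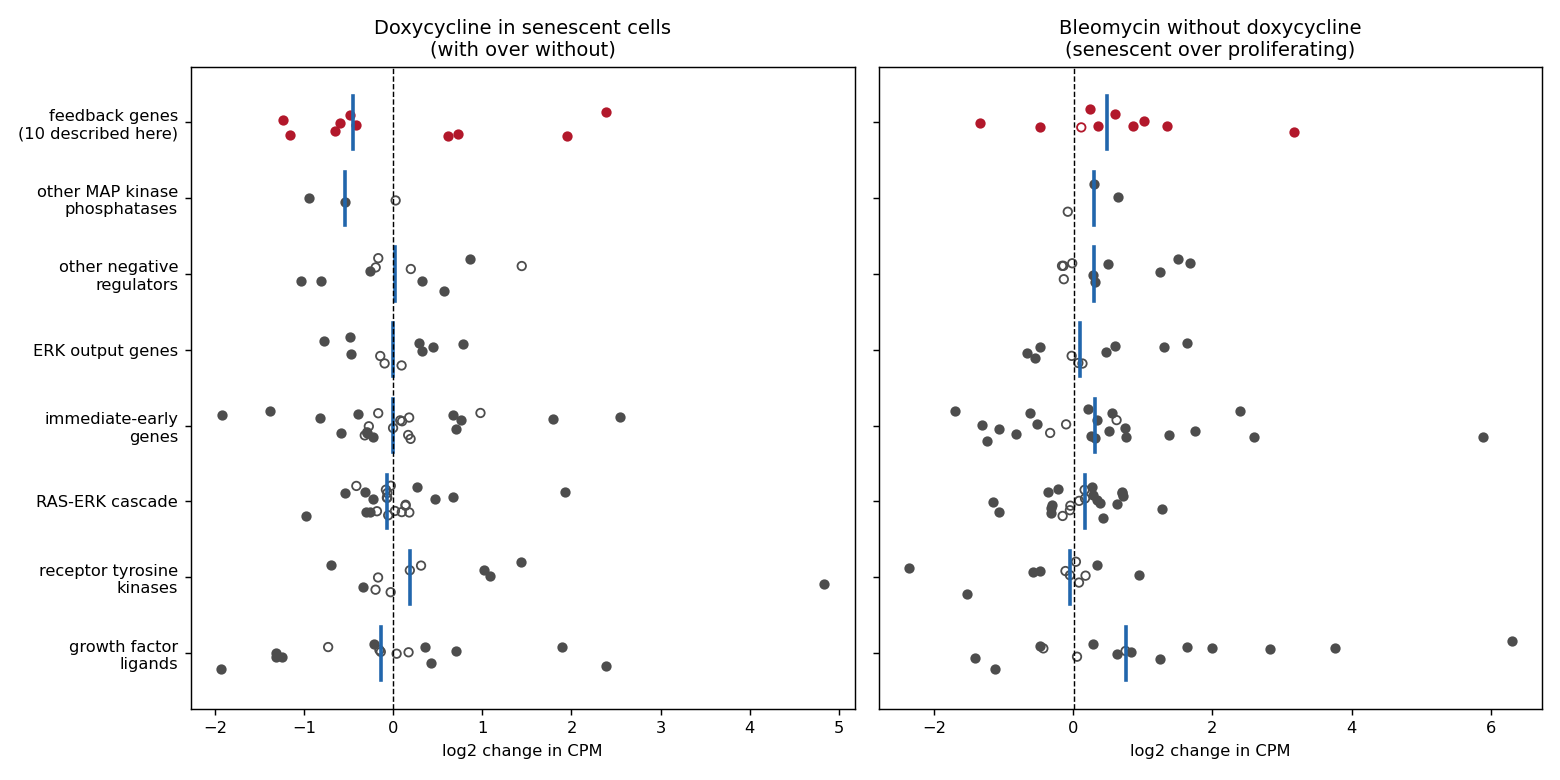
Log2 change in CPM of the 10 genes (top row) and of the tested genes of 7 other lists, with doxycycline in senescent cells (left) and with senescence without doxycycline (right). Filled points passed an adjusted p of 0.05, open points did not, and vertical bars are list medians, of which that of the 10 genes is -0.45 on the left and 0.48 on the right.

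Of 10 ERK output genes, 4 rose and 3 fell with doxycycline in senescent cells, 3 rose and 1 fell in proliferating cells, and 4 rose and 3 fell with senescence in the absence of doxycycline. The medians were 0.00, 0.04 and 0.10. The count that rose in senescent cells was 2 without SEN_Ctrl replicate 1, and the count that fell in proliferating cells was 0 without Nor_Ctrl replicate 1 or Nor_Ctrl replicate 2. CCND1, the cyclin gene through which growth signals drive entry into the cell cycle, averaged 1144 ± 103 CPM in SEN_Dox and 1601 ± 19.8 in SEN_Ctrl, and 959.6 ± 57.0 in Nor_Dox and 649 ± 22.6 in Nor_Ctrl (SD, n = 2). Like SPRY2 and SPRY4, it fell with doxycycline in senescent cells (-0.49, edgeR adjusted p = 0.000497). In proliferating cells it rose (0.56, edgeR adjusted p = 0.000348). MYC rose with doxycycline in both states, by 0.78 in senescent cells and 0.65 in proliferating cells (edgeR adjusted p = 2.01e-05 and 0.000293). FOSL1, an AP-1 subunit gene, fell by 0.48 with doxycycline in senescent cells (edgeR adjusted p = 0.00118) and by 0.66 with senescence without it (edgeR adjusted p = 3.91e-05).

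Immediate-early genes were compared because EGR1 and DUSP1 belong to that class. Of 23 tested, 5 rose and 7 fell with doxycycline in senescent cells, 4 rose and 4 fell in proliferating cells, and 13 rose and 7 fell with senescence in the absence of doxycycline. The medians were 0.00, -0.12 and 0.32. With total counts only the 5 were 8, and with a higher filter on low levels (mean log2 CPM 1 or more) the 7 that fell with doxycycline were 4. In proliferating cells the falls were 2 without Nor_Ctrl replicate 2 or Nor_Dox replicate 1, and with senescence they were 4 without Nor_Ctrl replicate 2 or with the description's replicate block. SGK1 rose with doxycycline by 1.80 in senescent cells and 1.33 in proliferating cells (edgeR adjusted p = 1.29e-09 and 1.31e-07), and KLF2 by 2.54 and 1.6 in the same order (edgeR adjusted p = 7.7e-07 and 6.21e-05). JUNB, an AP-1 subunit gene, fell by 0.82 in senescent and 0.67 in proliferating cells, and EGR1 too was lower in both. With senescence without doxycycline ATF3 rose by 2.60 (edgeR adjusted p = 1.13e-10) and IER2 fell by 1.70 (edgeR adjusted p = 1.7e-09).

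The kinase cascade lies upstream of the 10 genes. Of 23 tested cascade genes 4 rose and 6 fell with doxycycline in senescent cells, 4 rose and 3 fell in proliferating cells, and 10 rose and 7 fell with senescence in the absence of doxycycline, with medians of -0.07, -0.04 and 0.16. The shares called, 10 of 23 and 7 of 23 with doxycycline, are near those of all genes. In senescent cells the falls were 3 without SEN_Ctrl replicate 1 or SEN_Dox replicate 1, and with total counts only 8 rose and 2 fell. In proliferating cells the rises were 1 without Nor_Ctrl replicate 1 or Nor_Dox replicate 2, 0 without Nor_Ctrl replicate 2 and 2 with DESeq2, its size factors or the description's block, and the falls were 1 without Nor_Ctrl replicate 1, Nor_Ctrl replicate 2 or Nor_Dox replicate 1, with the 4 libraries alone or with that block. With senescence the falls were 4 without Nor_Ctrl replicate 2. MAP2K1, which encodes the ERK kinase MEK1, rose by 0.67 with doxycycline in senescent cells (edgeR adjusted p = 6.47e-06). RPS6KA2, the gene of an ERK-activated kinase, averaged 18.9 ± 1.31 CPM in SEN_Dox and 37.4 ± 1.37 in SEN_Ctrl (SD, n = 2) and fell by 0.99 with doxycycline (edgeR adjusted p = 2.63e-06). RPS6KA1, at lower levels, went the other way, with 5.54 ± 0.839 CPM in SEN_Dox and 1.46 ± 0.0435 in SEN_Ctrl (SD, n = 2). Its rise of 1.93 (edgeR adjusted p = 2.35e-06) was the largest change of the list with doxycycline in senescent cells. NRAS fell by 1.07 with senescence in the absence of doxycycline (edgeR adjusted p = 5.74e-09).

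Of 11 tested receptor tyrosine kinase genes, 4 rose and 2 fell with doxycycline in senescent cells, 4 rose and 3 fell in proliferating cells, and 2 rose and 4 fell with senescence in the absence of doxycycline. The medians were 0.18, 0.02 and -0.05. In senescent cells the falls were 4 without either Nor_Dox library and 1 without SEN_Ctrl replicate 2, without SEN_Dox replicate 1 or with total counts only. In proliferating cells they were 1 without Nor_Ctrl replicate 1, Nor_Ctrl replicate 2 or Nor_Dox replicate 1 or with the description's block, and with senescence the rises were 1 with total counts only. EGFR averaged 264 ± 27.6 CPM in SEN_Dox and 430.03 ± 24.4 in SEN_Ctrl (SD, n = 2). It fell by 0.71 with doxycycline in senescent cells (edgeR adjusted p = 1.88e-05). With senescence without doxycycline it rose by 0.95 (edgeR adjusted p = 3.64e-07). Both were the directions of DUSP6. In proliferating cells, where DUSP6 was lower with doxycycline (-0.34), EGFR did not pass (0.02, edgeR adjusted p = 0.922). MET, the receptor of HGF, rose with doxycycline by 1.08 in senescent cells and 0.53 in proliferating cells (edgeR adjusted p = 3.22e-08 and 0.000154). ERBB3 had the largest change of the list with doxycycline in senescent cells, a rise of 4.84 (edgeR adjusted p = 3.53e-10). It averaged 15.6 ± 1.83 CPM in SEN_Dox and 0.547 ± 0.258 in SEN_Ctrl (SD, n = 2). FGFR4 and AXL also rose there, by 1.43 and 1.01 (edgeR adjusted p = 0.000731 and 1.15e-07).

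Of 15 tested growth factor genes, 5 rose and 5 fell with doxycycline in senescent cells, 6 rose and 3 fell in proliferating cells, and 9 rose and 3 fell with senescence in the absence of doxycycline. The medians were -0.14, 0.16 and 0.75. HBEGF, an EGFR ligand, had its group means in the order of DUSP1 and DUSP5: it averaged 63.1 ± 1.45 CPM in SEN_Dox and 16.9 ± 2.60 in SEN_Ctrl, and 39.5 ± 3.98 in Nor_Dox and 5.44 ± 0.459 in Nor_Ctrl (SD, n = 2). It rose with doxycycline by 1.90 in senescent cells and by 2.86 in proliferating cells (edgeR adjusted p = 2.62e-09 and 1.51e-10). HGF fell by 1.94 and 1.41 in the same order (edgeR adjusted p = 1.85e-10 and 8.49e-09). AREG, another EGFR ligand, rose by 1.99 with senescence without doxycycline (edgeR adjusted p = 4.16e-05). It fell by 1.32 with doxycycline in senescent cells (edgeR adjusted p = 0.000946). Both were the directions of DUSP6. With doxycycline in proliferating cells AREG did not pass (-0.18, edgeR adjusted p = 0.657). NRG1 rose by 2.83 with senescence without doxycycline (edgeR adjusted p = 4.17e-13).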

How the data were processed

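The authors deposited raw counts of reads per gene, 1 column for each of 8 libraries. Per the submitters' processing notes, Trimmomatic 0.36, HISAT2 2.1.0, featureCounts 1.6.3 and hg38 were used; annotation and strand setting were not given in the sources used here. In R 4.3.3, edgeR 4.0.16 gave the main results and DESeq2 1.42.0 and limma 3.58.1 alternatives, with filterByExpr, TMM scaling, a robust quasi-likelihood fit of 4 groups (4 residual degrees of freedom, common biological coefficient of variation 0.0904) and two-sided tests with Benjamini-Hochberg adjustment over 17155 genes at 0.05. The fit was also run on simulated counts, the outcome of which is not given here. Replicate numbers follow the titles. No block was used in the main fit, because the labels do not say that replicate numbers pair libraries. Residuals of same-numbered libraries correlated at -0.0121 to 0.159. Alternatives were other scalings, filters and tools, replicate blocks and each library left out. The members and lists were chosen with earlier results of these data known. Genes named for the pathway lists were drawn from a pool. It held, per list and pairwise comparison, up to 4 genes with the largest called change and a mean log2 CPM of at least 0. From a list of at most 8, any gene could be named. Not all of the pool is given: NR4A2 (log2 change -1.92) and FGF7 (-1.32), with doxycycline in senescent cells, were left out. So was PDGFB (3.76, senescence without doxycycline). EGR2 and EGR3, immediate-early genes, were outside the pool for their low mean log2 CPM (-0.705 and -1.59). EGR2 averaged 4.56 ± 1.16 CPM in SEN_Ctrl and 0.0742 ± 0.00137 in Nor_Ctrl (SD, n = 2), the opposite direction to EGR1. EGR3 averaged 0.216 ± 0.0905 CPM in SEN_Ctrl and 0.543 ± 0.0599 in Nor_Ctrl (SD, n = 2). Several genes given shared a direction or order with DUSP6, DUSP1 and DUSP5, or SPRY2 and SPRY4. How common such likeness is in the lists was not tested. Sequences are from RefSeq GRCh38.p14 and positions from GENCODE 29.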

Additional observations from a re-analysis of the deposited data

Results flagged for a closer look

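For 7 of the 10 genes the difference between the log2 changes with doxycycline in senescent and in proliferating cells was past the threshold of the edgeR fit's interaction term. These are described values and no finding, because the genes were chosen on these libraries. The difference, senescent minus proliferating, was positive for DUSP1 (0.45), DUSP5 (0.82) and SPRED1 (0.61). It was negative for DUSP4 (-0.91), DUSP6 (-0.90), SPRY2 (-0.59) and SPRY4 (-0.72). That of DUSP4 was not past the threshold in 11 of 17 alternatives, limma-voom and DESeq2 among them. Of all genes tested, 19.9% had such a difference.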

How the results depend on the processing

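No log2 change of the 10 genes that was past the threshold changed sign under any alternative run. Among those not past it, the sign changed under some alternatives for SPRED1 (doxycycline in proliferating cells, and senescence with doxycycline), SPRED2 (senescence with and without doxycycline, and the difference of doxycycline effects), SPRY4 (doxycycline in proliferating cells) and EGR1 (that difference). Of their 890 values 861 kept their side of the threshold, 28 fell short of it and 1 newly passed. Genes called for doxycycline in proliferating cells numbered 3938, and 2353 with the description's number as a replicate block; with 1 library left out they ran from 2011 to 4155, the fewest without Nor_Ctrl replicate 2. For the difference of doxycycline effects 3407 genes became 1852 to 3903. Of the 10 genes, 3 to 5 and 4 to 7 were then called in the same comparisons. The title's number as a replicate block changed no call of the 10 genes (all 10 still called for doxycycline in senescent cells). A library left alone in its group was assumed to vary like the others. The fit shares 1 spread per gene over all groups, though the pairs of libraries differed unequally. The chi-square of counts per degree of freedom was 12.3 in SEN_Dox, 15.1 in SEN_Ctrl, 18.5 in Nor_Dox and 3.54 in Nor_Ctrl. Depth limits DUSP4 most, at 33 reads in its lowest library. HRAS and IER3, singled out after their values were seen, sat near 0, at 0.0752 to 0.235 and 0.0883 to 0.952 CPM, and the cause was not tested. The protein comparison planned was not run.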
